A study of Mus musculus with 6 samples.

Results

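The 48 genes described here encode the T cell receptor (TCR) signalling machinery and the molecules that restrain it. They were listed by name as a module, though with earlier results of these data known. All 48 were among the 26128 genes listed and among the 14671 with enough counts to be tested. RNA had been sequenced from double negative T (DNT) cells, which carry CD3 but neither CD4, CD8 nor NK1.1. Their precursors were CD4+ T cells of adult wild type C57BL/6 mice, which lost CD4 during culture with DBA/2 dendritic cells and IL-2 before the sort. The labels give spleen as the source of the precursors. The methods give both spleens and lymph nodes, and cells without CD25. All 6 libraries came from 48 h cultures on anti-CD3/CD28 beads, which engage the receptor and CD28 directly. The 3 control libraries received the beads alone, and the 3 IL-33 libraries received the beads and IL-33 at 50 ng/ml, so that the comparison is of IL-33 added to a stimulated receptor, and no unstimulated cells were analysed here. Whether replicates were separate mice or separate wells is not given in the labels or methods, so the p-values measure only the spread between these libraries, which may be technical.

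As background, the TCR has no enzymatic activity of its own. The CD3 and CD247 chains carry tyrosine motifs that the kinases Lck and Fyn phosphorylate, Zap70 docks there and phosphorylates the scaffolds Lat and Lcp2, and the complex they build drives phospholipase C, calcium and calcineurin with NFAT, Ras, and protein kinase C with NF-κB. Phosphatases, the kinase Csk, ubiquitin ligases and diacylglycerol kinases limit each of these steps, and T cells tune their levels after activation.

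The cells carried abundant receptor transcripts in both groups. Trac, the constant region of the TCR α chain, stood at 181 ± 5.99 CPM (counts per 1000000 counts of the library; mean ± SD, n = 3) in control and 189 ± 2.16 CPM in IL-33 libraries, with a log2 fold change of 0.07 (adjusted p = 0.14). The sort was only partly mirrored in the RNA. Cd4 had 16 to 22 counts per control library and 5 to 11 per IL-33 library, or 0.934 ± 0.183 and 0.373 ± 0.143 CPM, without overlap (log2 fold change -1.31 ± 0.47, adjusted p = 0.0233). Cd8a was at 545 ± 13.6 CPM in control and 400.2 ± 9.15 CPM in IL-33 libraries, a fall of 0.45 on the log2 scale (adjusted p = 2.4e-26). Klrb1c, which encodes NK1.1, fell from 33.5 ± 2.57 to 25.6 ± 1.15 CPM (adjusted p = 7.1e-06). The libraries held 20256342 to 22336050 counts, at which 3 counts, taken as the limit of detection, correspond to 0.134 to 0.148 CPM for counting error only.

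With IL-33 the receptor module shifted in small steps in both directions. Of the 48 genes, 13 rose and 16 fell at an adjusted p under 0.05, and 19 did not pass. The same threshold was passed by 27.5% of all genes tested, 13.6% higher and 13.9% lower, against 60.4% of the 48. Abundance goes with this share. Among all genes with a mean of at least 100 CPM 51.6% passed, and of the 33 receptor module genes at that level 22 passed (66.7%), 11 in each direction. The counts by role given below, of 2 to 13 genes each, are to be read beside these shares. The median log2 fold change of the module was -0.025, beside -6.3e-04 over all genes tested. The median size of the change regardless of sign was 0.107, beside 0.152 over all genes. For the 33 module genes of at least 100 CPM it was 0.110, beside 0.0931 over all genes at that level. For 34 of the 48 genes the change was smaller than 0.2 on the log2 scale. The groups did not overlap for 31 of the 48 genes, beside 38.9% of all genes tested, and for 23 of the 33 genes of at least 100 CPM, beside 61.9% of all genes at that level.

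**Figure D1:**
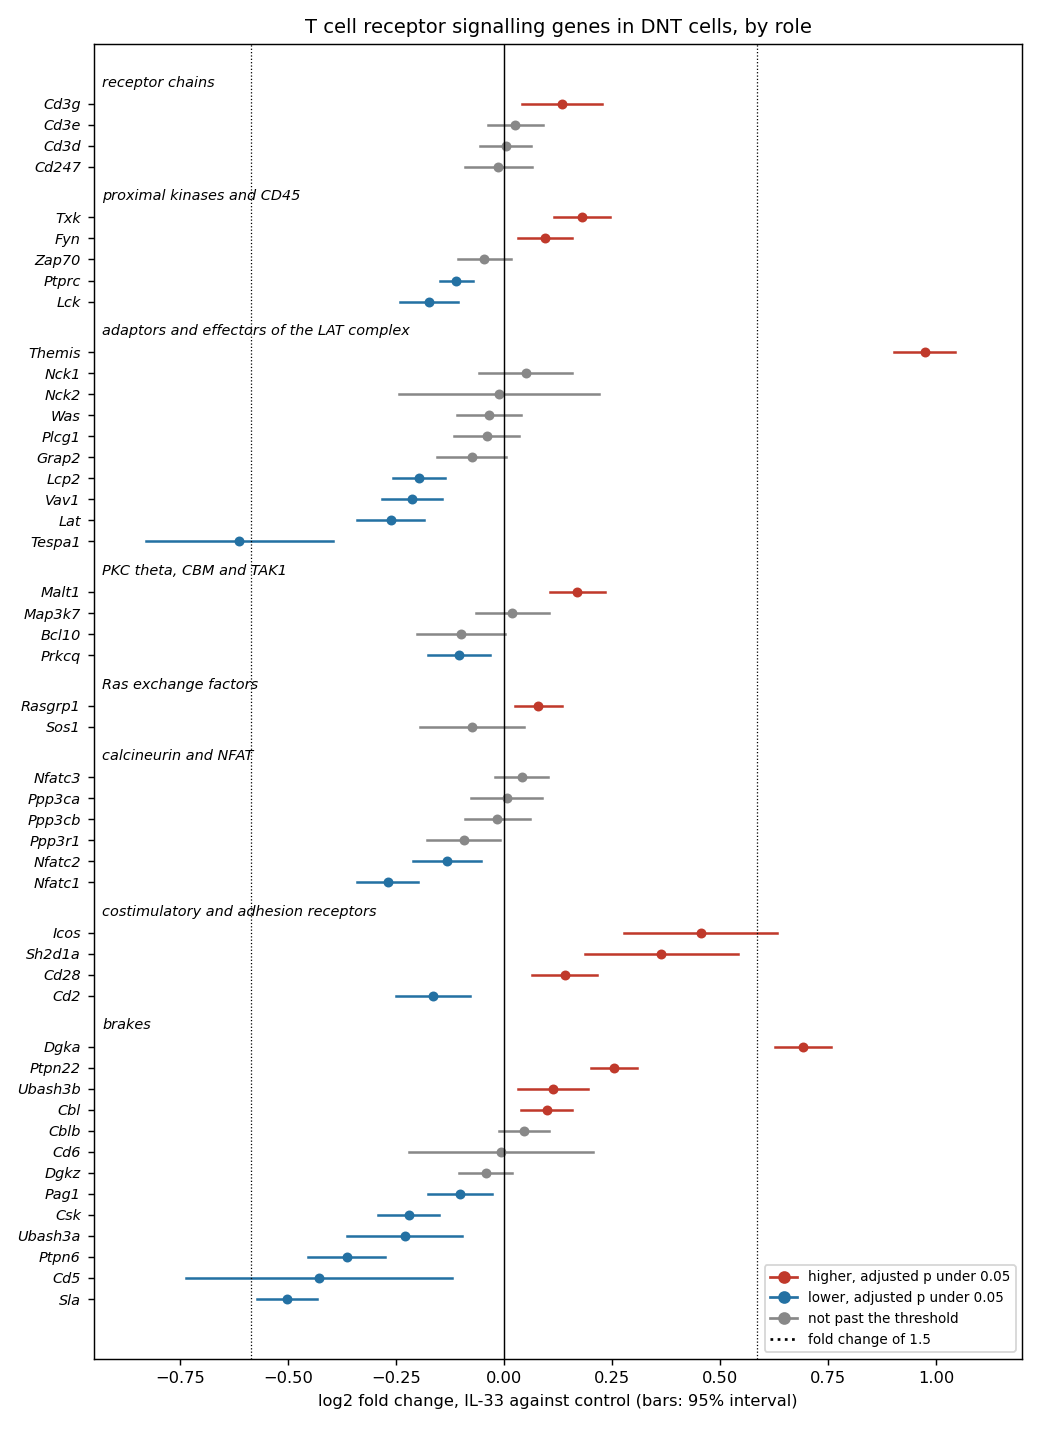
Log2 fold change of each of the 48 genes, IL-33 against control, grouped by role, with 95% intervals from edgeR over 3 against 3 libraries. Red and blue mark genes higher and lower at an adjusted p under 0.05, grey marks the others, and only Themis, Dgka and Tespa1 lie beyond the dotted lines at a fold change of 1.5.

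Only 3 of the 48 genes also reached a fold change of 1.5, which 4.87% of all genes tested did at that adjusted p (2.47% higher, 2.39% lower). Of the 33 module genes of at least 100 CPM 2 did so, beside 1.06% of all genes at that level. Themis and Dgka rose and Tespa1 fell. Themis encodes an adaptor of the Lat complex known for its part in thymocyte selection, and lies on the plus strand of chromosome 10 (28668360 to 28883818, GRCm38; ENSMUSG00000049109). Its level was 119, 116 and 118 CPM in the control libraries and 231, 233 and 229 CPM in the IL-33 libraries. Every IL-33 library held nearly as much again as any control library, and the log2 fold change was 0.97 ± 0.036 (SE; 95% interval 0.90 to 1.04; 1.96-fold; adjusted p = 7.0e-44). It was the largest change among the 48 genes.

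Dgka encodes diacylglycerol kinase α, a brake that removes the diacylglycerol on which Ras and protein kinase C activation depend (minus strand of chromosome 10, 128720134 to 128744855; ENSMUSG00000025357). It was at 175, 182 and 183 CPM in control and 288, 295 and 289 CPM in IL-33 libraries, a 1.62-fold rise with wide separation of the groups (log2 fold change 0.69 ± 0.033, adjusted p = 4.3e-35). Tespa1 encodes a thymocyte-expressed protein that links receptor signals to calcium release (plus strand of chromosome 10, 130322870 to 130364111; ENSMUSG00000034833). It was far less abundant, at 14.7, 16.1 and 16.6 CPM in control and 10.4, 11.3 and 9.36 CPM in IL-33 libraries. The groups did not overlap and the log2 fold change was -0.61 ± 0.11 (adjusted p = 2.5e-06), just inside the fold threshold. The nearest gene outside it was Sla, at -0.50. Without control replicate 3 the value for Tespa1 was -0.58 and without IL-33 replicate 3 it was -0.54, both short of that threshold at adjusted p of 9.6e-05 and 1.3e-04.

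**Figure D2:**
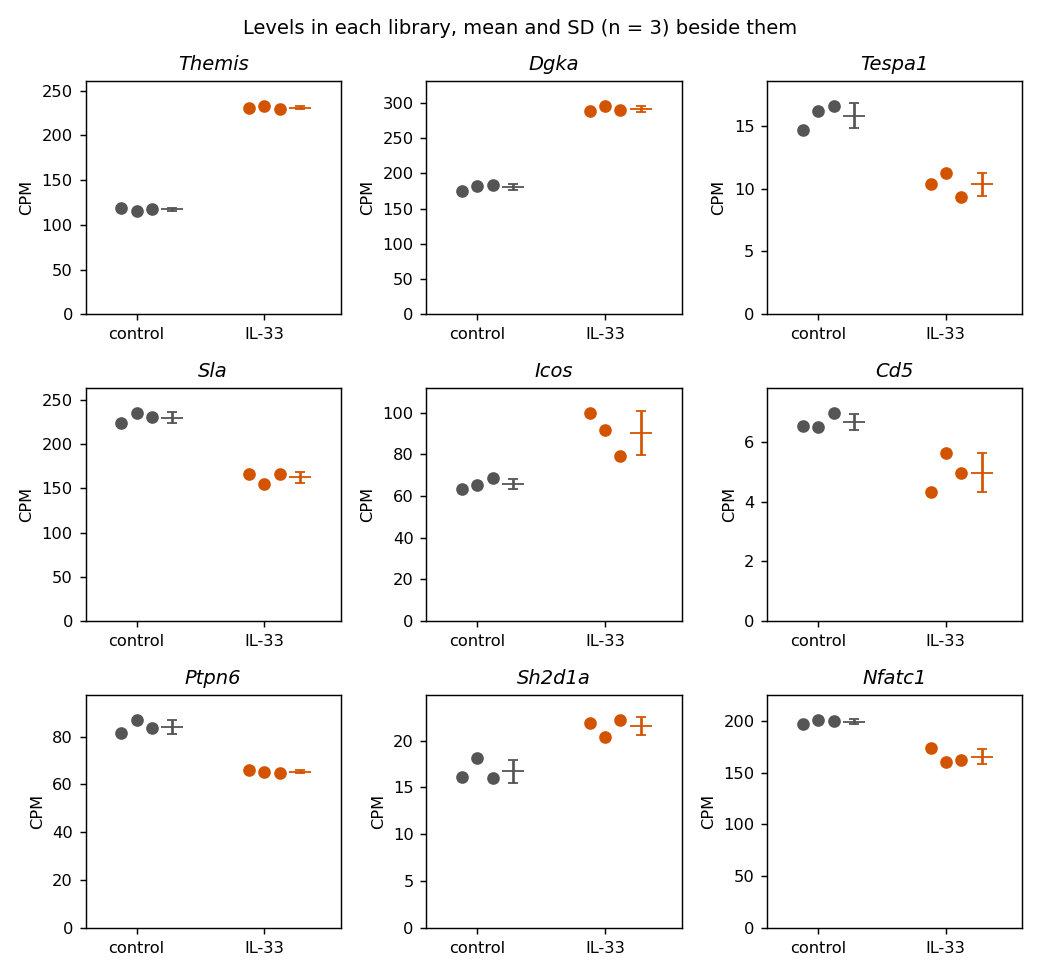
Level in CPM, on axes from 0, of the 9 genes with the largest changes, with 1 point per library and the mean and SD (n = 3) beside the points, grey for control and orange for IL-33. Themis sits at 116 to 119 CPM in control and 229 to 233 CPM in IL-33 libraries, and in none of the 9 genes do the groups overlap.

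The promoters of the genes that changed most are shown because NFAT, the factor at the end of the calcium branch, binds a short core that can be searched for in them. The 250 bases before the start of transcription were taken from RefSeq (GRCm38.p6), whose table held 37 of the 48 genes. No entry was found for Pag1, Cd2, Ppp3ca, Sla, Sh2d1a, Cd6, Malt1, Nfatc1, Tespa1, Cd28 and Icos. Printed are the 4 genes with the largest changes among those with an entry, 5′ to 3′ on the strand of the gene, with capitals marking the core GGAAA or its reverse complement TTTCC. Themis is given from chr10:28668110-28668359 (plus strand), Dgka from chr10:128745085-128745334 (minus), Cd5 from chr19:10738975-10739224 (minus) and Ptpn6 from chr6:124738710-124738959 (minus). Dgka has 4 starts in the table, of which the one nearest the annotated gene start was used. That start still lies 229 bases from the annotated one, beside 0 for Themis, 28 for Cd5 and 5 for Ptpn6.
Themis: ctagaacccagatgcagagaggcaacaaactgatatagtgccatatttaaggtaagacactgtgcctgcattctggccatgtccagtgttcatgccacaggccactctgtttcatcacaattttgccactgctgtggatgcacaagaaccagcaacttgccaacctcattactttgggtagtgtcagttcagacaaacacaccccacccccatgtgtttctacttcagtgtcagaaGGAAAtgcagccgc
Dgka: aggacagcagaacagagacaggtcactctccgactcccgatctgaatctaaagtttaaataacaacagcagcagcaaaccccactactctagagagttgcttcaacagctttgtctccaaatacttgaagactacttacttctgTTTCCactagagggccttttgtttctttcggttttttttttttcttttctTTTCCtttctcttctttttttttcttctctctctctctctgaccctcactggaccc
Cd5: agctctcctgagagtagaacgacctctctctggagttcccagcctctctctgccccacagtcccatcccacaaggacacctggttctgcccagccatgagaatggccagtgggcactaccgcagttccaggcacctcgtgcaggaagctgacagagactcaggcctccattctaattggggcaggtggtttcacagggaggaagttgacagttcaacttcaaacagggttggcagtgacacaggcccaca
Ptpn6: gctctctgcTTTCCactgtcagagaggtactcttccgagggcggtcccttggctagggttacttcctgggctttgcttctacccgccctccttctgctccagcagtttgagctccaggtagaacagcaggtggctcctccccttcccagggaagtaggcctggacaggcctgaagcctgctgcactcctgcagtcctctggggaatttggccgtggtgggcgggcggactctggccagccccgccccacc
Themis held the core 1 time, at position -14 from the start, and Dgka 2 times, at -106 and -56. Ptpn6 held it 1 time, at -241, and Cd5 not at all. Over all 37 windows 26 held GGAAA on either strand (70.3%), beside 55.6% of all 32851 windows of this length in the table. Here and for the motifs below, each module gene gave 1 window, while all windows include every start of a gene. The shares are therefore not of the same unit. The GC box GGGCGG was in 17 windows of the module (45.9%, beside 32.7% of all windows), 5 times in that of Ptpn6. The RUNX core TGTGGT was in 4 (10.8%, beside 14.0%) and the TATA box TATAAA in 2 (5.41%, beside 12.4%). The AP-1 site TGANTCA (6.75% of all windows) and the ETS site CCGGAAG (6.91%) were in none of the 37. Matches of both strands were counted, the ETS site does not contain the NFAT core, and a match is a description of the letters and not of binding.

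Of the 4 receptor chains, Cd3g rose and the other 3 did not pass the test at an adjusted p under 0.05. Cd3d, with the highest level per length of all 48 genes, was at 415, 455 and 447 CPM in control and 440.5, 443 and 437 CPM in IL-33 libraries. The groups overlapped, and the log2 fold change was 0.00 (95% interval -0.05 to 0.06, adjusted p = 0.95). Cd3g was at 665, 736 and 717 CPM in control and 741, 817 and 768 CPM in IL-33 libraries, separated by a narrow margin. Its log2 fold change of 0.13 ± 0.042 passed in edgeR (adjusted p = 0.0336) but not with DESeq2 (0.0879) or limma-voom (0.121), nor without control replicate 3 (0.0538). Cd3e (0.03, adjusted p = 0.59) and Cd247, the ζ chain (-0.01, adjusted p = 0.84), had overlapping groups. Exons of Cd247 share 3007 bases with Pou2f1 on the opposite strand, and no source used here gives the strand setting of the counting, so its reads and those of Pou2f1 (43.4 CPM in control, 46.3 CPM in IL-33 libraries) cannot be told apart there.

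Among the proximal kinases and CD45, Txk and Fyn rose and Lck and Ptprc fell, while Zap70 did not pass. Lck, the Src family kinase that coreceptors bring to the receptor, was at 221, 224 and 219 CPM in control and 205, 195 and 189 CPM in IL-33 libraries. Every IL-33 library was lower than every control library (log2 fold change -0.17 ± 0.034, adjusted p = 2.2e-05). Fyn, the other Src family kinase of T cells, was at 280.3, 288 and 281 CPM in control and 310.2, 293 and 304 CPM in IL-33 libraries, a rise of 0.09 ± 0.031 (adjusted p = 0.0150). This small rise was lost without control replicate 3 (adjusted p = 0.0587), without IL-33 replicate 1 (0.109) and with scaling to library totals (0.0545). Txk, a Tec family kinase that acts on phospholipase C, was at 220.0, 224 and 219.6 CPM in control and 250.2, 254 and 248 CPM in IL-33 libraries. It was higher in each IL-33 library by a margin well beyond the spread, with a log2 fold change of 0.18 ± 0.033 (adjusted p = 3.1e-06). Ptprc, which encodes the phosphatase CD45 that keeps Lck active, had by far the most counts of the 48 genes, at 3679, 3630.5 and 3634 CPM in control and 3379, 3325 and 3434 CPM in IL-33 libraries. The fall of 0.11 on the log2 scale (SE 0.019, adjusted p = 1.6e-06) was small, and the groups did not overlap. Zap70 was at 351, 358 and 368 CPM and at 366, 343 and 334 CPM, with overlapping groups (-0.05, 95% interval -0.11 to 0.02, adjusted p = 0.29).

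In the Lat complex, 4 of 10 genes fell (Lat, Lcp2, Vav1 and Tespa1), Themis rose and 5 did not pass. Lat, the membrane scaffold on which the complex forms, was at 128, 131 and 128 CPM in control and 109, 104 and 110.3 CPM in IL-33 libraries. Its log2 fold change was -0.26 ± 0.039 (adjusted p = 3.1e-08). Lcp2, the cytosolic scaffold SLP-76, was at 401, 431 and 421 CPM in control and 369, 353 and 371 CPM in IL-33 libraries, and Vav1, an exchange factor for Rac that binds it, was at 199, 197 and 199 CPM and then at 175, 172 and 166 CPM. Both were lower in every IL-33 library, Lcp2 by -0.20 ± 0.030 (adjusted p = 4.0e-08) and Vav1 by -0.21 ± 0.035 (adjusted p = 3.8e-07). The remaining 5 genes had overlapping groups and log2 fold changes from -0.07 to 0.05. They were the adaptors Grap2 (-0.07), Nck1 (0.05) and Nck2 (-0.01), Plcg1 (-0.04), the phospholipase C of this pathway, and Was (-0.03), which links the complex to actin. Grap2 passed the threshold without control replicate 1, at -0.11 with an adjusted p of 0.0439. Exons of Lcp2 and Plcg1 overlap genes on the opposite strand, for Plcg1 the gene Zhx3, at 19.9 CPM in control and 15.4 CPM in IL-33 libraries. In bulk RNA, fewer cells that express a gene and less RNA per cell cannot be told apart.

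In the branch to NF-κB Malt1 rose and Prkcq fell, and of the Ras exchange factors Rasgrp1 rose. Malt1, the protease of the Bcl10 complex, was at 234, 235 and 239.5 CPM in control and 259, 268 and 269.9 CPM in IL-33 libraries. Each IL-33 library was higher, with a log2 fold change of 0.17 ± 0.032 (adjusted p = 1.0e-05). Prkcq, the kinase PKC θ that starts this branch, was at 174, 169 and 167 CPM in control and 160.4, 152 and 162 CPM in IL-33 libraries, a fall of 0.10 on the log2 scale (SE 0.037, adjusted p = 0.0230). Its call was lost without control replicate 1 (adjusted p = 0.0995) and without IL-33 replicate 2 (0.186). Bcl10 itself (-0.10, adjusted p = 0.15) and Map3k7, the kinase TAK1 (0.02, adjusted p = 0.79), had overlapping groups. Rasgrp1, the diacylglycerol-dependent activator of Ras, was at 556, 538 and 542 CPM in control and 577, 564 and 588 CPM in IL-33 libraries, 1.06-fold higher (adjusted p = 0.0180). That call was lost in 4 of the 6 fits that leave out a library and in 1 other, with an adjusted p of 0.0903 without control replicate 2, 0.0669 without control replicate 3, 0.0514 without IL-33 replicate 1, 0.0968 without IL-33 replicate 3 and 0.0743 with scaling to library totals. Sos1, the other Ras exchange factor, was at 43.8 ± 2.18 and 41.6 ± 1.94 CPM (-0.07, adjusted p = 0.41).

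For calcineurin and NFAT, 2 of 6 genes fell and none rose. Nfatc1 was at 197, 201 and 199.7 CPM in control and 174, 160.3 and 162 CPM in IL-33 libraries, with no overlap (log2 fold change -0.27 ± 0.036, adjusted p = 5.8e-10). Nfatc2 was at 150.5, 152 and 165 CPM in control and 148, 133 and 145 CPM in IL-33 libraries, a fall of 0.13 on the log2 scale (SE 0.039, adjusted p = 0.00640). Its groups were close, and the value was -0.09 both without control replicate 3 (adjusted p = 0.127) and without IL-33 replicate 2 (0.142). Nfatc3, the NFAT factor with the highest level per length of this role, was at 325, 319.8 and 333 CPM in control and 329, 328 and 348 CPM in IL-33 libraries. Its groups overlapped, with a log2 fold change of 0.04 (95% interval -0.02 to 0.10, adjusted p = 0.35). The calcineurin subunits Ppp3ca (0.01) and Ppp3cb (-0.02) had overlapping groups, and the regulatory subunit Ppp3r1 had a log2 fold change of -0.09 (adjusted p = 0.0904) that passed the threshold without control replicate 2 (0.0361) and with scaling to library totals (0.0396). Exons of Ppp3r1 share 462 bases with Wdr92 on the same strand, so part of its counts is uncertain.

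All 4 costimulatory and adhesion genes passed, 3 higher and Cd2 lower, beside 27.5% of all genes tested and 51.6% of those of at least 100 CPM. Only Cd28 among them had a mean of at least 100 CPM. Icos, a receptor of the CD28 family that is induced by activation, was at 63.5, 65.3 and 68.4 CPM in control and 99.9, 91.7 and 79.0 CPM in IL-33 libraries. The IL-33 libraries lay above all control libraries but were spread more widely (SD 10.5 against 2.47 CPM), and the log2 fold change was 0.45 ± 0.078 (adjusted p = 0.00174). Sh2d1a, which encodes the adaptor SAP of the SLAM family receptors, was at 16.1, 18.1 and 16.0 CPM in control and 21.9, 20.4 and 22.2 CPM in IL-33 libraries, a rise of 0.36 ± 0.089 (adjusted p = 7.1e-04). Exons of Sh2d1a overlap those of Tenm1 on the opposite strand, which was at 0 CPM in control and 0.045 CPM in IL-33 libraries. Cd28 was at 142, 154 and 139 CPM in control and 160.1, 163 and 156 CPM in IL-33 libraries, a rise of 0.14 ± 0.038 (adjusted p = 0.00258). Cd2, the receptor for CD48, was at 94.7, 91.7 and 92.0 CPM in control and 88.0, 78.6 and 81.9 CPM in IL-33 libraries, a fall of 0.16 on the log2 scale (SE 0.043, adjusted p = 0.00165). None of these 4 calls was lost under any alternative fit, and the highest adjusted p among those fits was 0.0481 for Cd28 (without control replicate 3), 0.0387 for Cd2 (without IL-33 replicate 2), 0.0259 for Icos and 0.00743 for Sh2d1a.

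The brakes moved in both directions. Of 13, 4 rose (Dgka, Ptpn22, Ubash3b and Cbl), 6 fell (Sla, Cd5, Ptpn6, Ubash3a, Csk and Pag1) and 3 did not pass (Cblb, Cd6 and Dgkz). The share that passed was 76.9%, beside 27.5% of all genes tested and 51.6% of those of at least 100 CPM. The brakes were not split by abundance. The median size of their change regardless of sign was 0.22 on the log2 scale, beside 0.0994 for the other 35 genes, a difference that was not tested. Sla, an adaptor that sends receptor chains to degradation, was at 224, 235 and 231 CPM in control and 166, 155 and 166 CPM in IL-33 libraries. It was 0.706-fold the control level (log2 fold change -0.50 ± 0.035, adjusted p = 1.6e-23). Ptpn22, a phosphatase that acts on Lck and Zap70, was at 533, 547 and 519.6 CPM in control and 636, 650.1 and 623 CPM in IL-33 libraries. It rose by 0.26 ± 0.027 (adjusted p = 6.5e-14) while Csk, the kinase it partners with and that holds Lck inactive, was at 204, 191 and 188 CPM and then at 169, 163 and 168 CPM, lower by -0.22 ± 0.036 (adjusted p = 2.7e-07). Ptpn6, the phosphatase SHP-1, was at 81.6, 87.1 and 83.4 CPM in control and 66.0, 65.1 and 64.7 CPM in IL-33 libraries. These groups stood well apart, with a log2 fold change of -0.36 ± 0.045 (adjusted p = 3.0e-11).

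The related phosphatases Ubash3a and Ubash3b moved in opposite directions. Ubash3a was at 35.8, 38.1 and 34.7 CPM in control and 30.9, 31.0 and 30.6 CPM in IL-33 libraries (log2 fold change -0.23 ± 0.067, adjusted p = 0.00494, and 0.0537 without control replicate 2). Ubash3b was at 96.6, 102 and 96.0 CPM in control and 106, 106 and 107 CPM in IL-33 libraries (0.11 ± 0.041, adjusted p = 0.0257). The call of Ubash3b was lost with DESeq2 (adjusted p = 0.0686), with library totals (0.0665) and without control replicate 1 (0.0710), control replicate 3 (0.133) or IL-33 replicate 3 (0.0610). Cd5, an inhibitory receptor, was the least abundant of the 48 genes per length, at 6.55, 6.50 and 6.98 CPM in control and 4.32, 5.63 and 4.95 CPM in IL-33 libraries. Its groups did not overlap, but the fall of 0.43 on the log2 scale had an SE of 0.16 (adjusted p = 0.0289) and was lost with DESeq2 (0.0914) and when control replicate 3 (0.0935), IL-33 replicate 1 (0.155) or the third IL-33 library (0.0641) was left out. Cd6, its relative, was at 14.3 ± 2.40 and 14.2 ± 0.852 CPM, with overlapping groups.

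Pag1, the membrane anchor of Csk, was at 166, 158 and 168 CPM in control and 147, 157 and 155 CPM in IL-33 libraries, a fall of 0.10 on the log2 scale (SE 0.037, adjusted p = 0.0324). It was lost with DESeq2 (0.0728), without the filter on low counts (0.0525) and without control replicate 1 (0.0930), control replicate 3 (0.147) or IL-33 replicate 1 (0.259). Cbl, a ubiquitin ligase that removes activated receptors and kinases, was at 404, 377 and 389 CPM in control and 414, 425 and 415 CPM in IL-33 libraries (0.10 ± 0.029, adjusted p = 0.00603, and 0.0906 without control replicate 2). Its relative Cblb was at 372 ± 6.60 and 384 ± 2.72 CPM, with groups that did not overlap but a log2 fold change of 0.05 that did not pass (adjusted p = 0.26). Dgkz, the other diacylglycerol kinase, was at 299.6 ± 9.96 and 291 ± 2.26 CPM (-0.04, adjusted p = 0.34).

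Ratios of counts between genes of related function within a library do not depend on the scaling between libraries. The 16 pairs were chosen after the values had been seen, so the ratios are given as a description, with no test. Dgka had 0.602 ± 0.0333 counts for each count of Dgkz in control and 1.00 ± 0.0131 in IL-33 libraries. Fyn had 1.28 ± 0.0106 counts for each count of Lck in control and 1.54 ± 0.0594 in IL-33 libraries. The ratio of Ubash3b to Ubash3a was 2.72 ± 0.0441 and 3.45 ± 0.0390, that of Ptpn22 to Csk was 2.75 ± 0.129 and 3.82 ± 0.136, and that of Nfatc3 to Nfatc1 was 1.64 ± 0.0412 and 2.03 ± 0.129. In 11 of the 16 pairs, these included, the groups did not overlap, which the choice of pairs favoured. The ratios of Cd3e to Cd3d (0.683 and 0.694), Cd3g to Cd3e, Cbl to Cblb (1.05 and 1.09), Ppp3cb to Ppp3ca (1.44 and 1.42) and Nck2 to Nck1 (0.220 and 0.211) overlapped between groups.

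**Figure D3:**
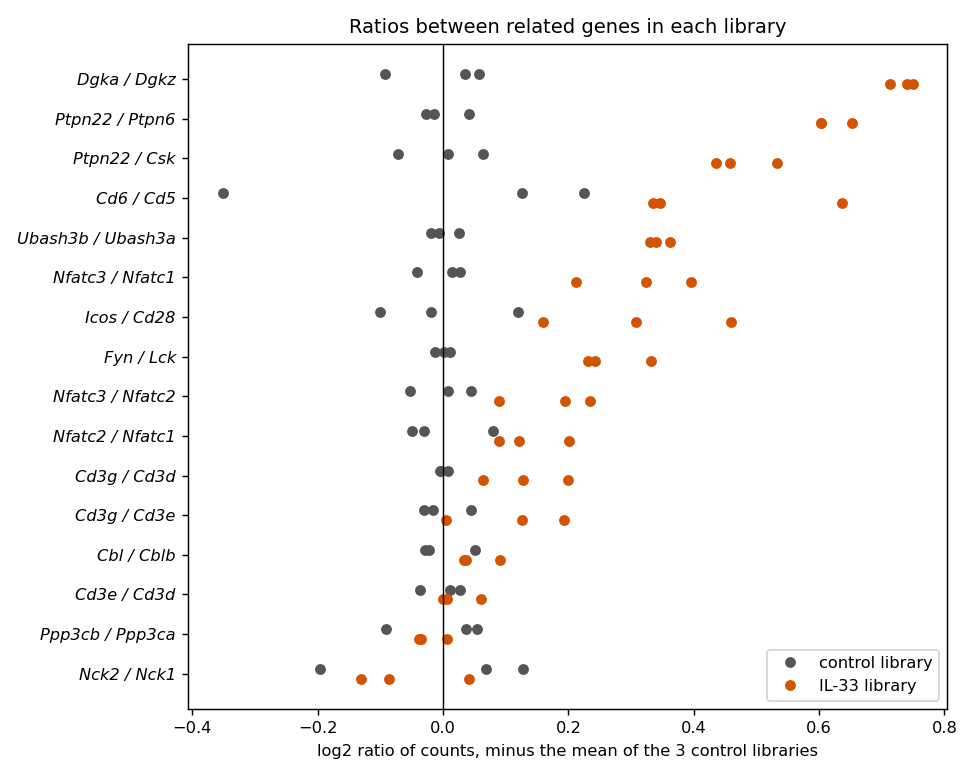
Log2 ratio of counts between related genes in each library, with the mean of the 3 control libraries set to 0 for each pair. Grey points are control and orange points IL-33 libraries, and the pair Dgka to Dgkz lies farthest to the right while the 5 lowest rows overlap.

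Levels of different genes were compared per kilobase of exon. In CPM per kilobase, averaged over the 6 libraries, Cd3d (242) and Cd3g (227) came first, with ranges over libraries that overlapped (229 to 251 and 204 to 250), followed by Ptprc (192), Zap70 (118) and Rasgrp1 (100.2), whose ranges did not overlap with each other. Lcp2 (87.7), Ptpn22 (86.3), Cd3e (74.2), Lck (71.3) and Fyn (67.1) came next, and the range of each overlapped that of the gene before it, Rasgrp1 included. At the low end were Cd5 (1.18), Cd6 (1.79), Tespa1 (2.07), Nck2 (2.50) and Ubash3a (2.98). Cd3d ranked above 99.0% and Cd5 above 23.6% of all genes tested. The 2 genes that rose most stood inside this range, Themis at 10.1 ± 0.146 in control and 19.8 ± 0.159 in IL-33 libraries and Dgka at 37.8 ± 0.899 and 61.1 ± 0.855 CPM per kilobase. Replicates were close, with coefficients of variation within a group from 0.404% to 16.8%, the widest being Cd6 in control libraries.

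**Figure D4:**
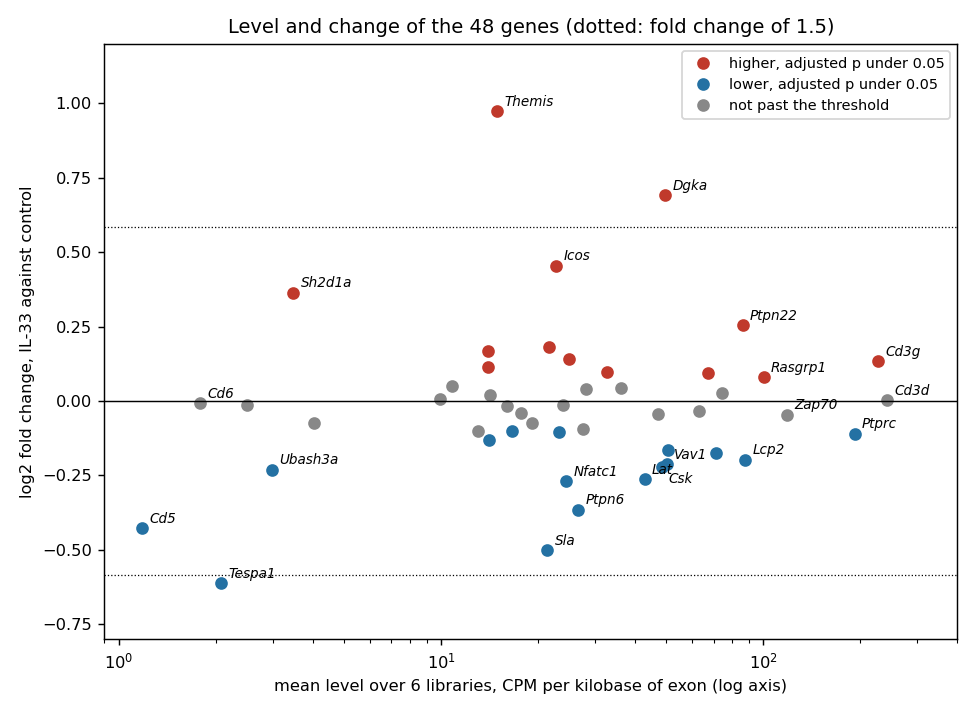
Log2 fold change against the mean level over the 6 libraries in CPM per kilobase of exon (log axis), with 1 point per gene and the same colours for the calls as in the plot by role. Themis and Dgka lie above the upper dotted line (fold change of 1.5) at levels of 14.9 and 49.4, and Tespa1 lies below the lower one at 2.07.

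Further genes of the pathway, listed without regard to how they moved but with earlier results of these data known, also moved in both directions. Of 45 other positive genes 15 rose and 6 fell, with a median log2 fold change of 0.05. Of 32 other brakes 3 rose and 10 fell, with a median of -0.04. Among all genes tested 13.6% were higher and 13.9% lower. In either direction 46.7% of the positive genes and 40.6% of the brakes passed, beside 51.6% of all genes of at least 100 CPM. These lists were not split by abundance. Only 3 reached a fold change of 1.5. Slamf6, a SLAM family receptor that signals through SAP, was at 8.76, 8.41 and 9.08 CPM in control and 16.2, 17.1 and 14.4 CPM in IL-33 libraries, a rise of 0.86 ± 0.11 (adjusted p = 3.5e-10). Socs1, an inhibitor of cytokine receptor signalling, was at 47.5, 48.1 and 47.7 CPM in control and 25.2, 23.7 and 29.5 CPM in IL-33 libraries, lower in every IL-33 library (log2 fold change -0.87 ± 0.067, adjusted p = 1.0e-20). Sh2b3, the adaptor LNK, was at 35.4, 33.7 and 33.5 CPM in control and 22.9, 22.8 and 20.7 CPM in IL-33 libraries (-0.63 ± 0.073, adjusted p = 4.1e-12).

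Markers of other cells moved beside these results. The counts of genes that rose or fell stand beside 13.6% higher and 13.9% lower among all genes tested. Of 11 T cell identity genes outside the module 1 rose and 5 fell, and their summed level ran from 2976 to 3039 CPM in control and from 2955 to 3048 CPM in IL-33 libraries. All 6 γδ T cell markers tested fell, among them Trdc, the constant region of the TCR δ chain, from 24.7 ± 1.63 to 15.1 ± 0.615 CPM (adjusted p = 7.1e-11). The sum of the list was 386 to 411 CPM in control and 334 to 344 CPM in IL-33 libraries. Most of that sum was Tcrg-C2, at 233 ± 8.59 CPM in control and 207 ± 3.76 CPM in IL-33 libraries (log2 fold change -0.17). Sox13 and Blk had few counts, 14 to 40 and 21 to 78 per library. Of 14 dendritic and myeloid markers 5 were abundant enough to be tested. Itgax fell (54.6 ± 2.07 and 26.0 ± 1.59 CPM), Cd68 rose (29.4 ± 1.42 and 33.6 ± 1.62 CPM, adjusted p = 0.0256), and Zbtb46, Xcr1 and Clec10a did not pass. The sum of the list was 99.2 to 101 CPM in control and 73.2 to 80.9 CPM in IL-33 libraries. Itgax was the only tested gene of this list that was lower past the threshold. Of 5 natural killer cell markers tested 2 fell and none rose. The 2 were Klrb1c, given above, and Gzma, with a log2 fold change of only -0.04. Gzma made up most of the sum (16307 to 16810 CPM in control, 15930 to 16041 CPM in IL-33 libraries). The B cell list summed to 5.02 to 5.75 and 5.53 to 6.75 CPM, with neither of its 2 tested genes past the threshold. The mast cell and basophil list summed to 39.6 to 43.4 and 28.6 to 33.3 CPM, with 2 of 4 tested genes lower. The part of such cells in the changes of the receptor module was not tested.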

How the data were processed

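RNA of DNT cells was measured by sequencing in 6 libraries, grouped by the labels into 3 control and 3 IL-33 libraries. The authors deposited unnormalized read counts for every gene and library, and 1 column of signal, the mean over samples of counts divided by size factors going by its name, which was not used. The submitters' processing notes list Bowtie 0.12.2 and the mouse build mm8, with no role given, while the counting program, annotation and strand setting are not named in the labels or the study's methods. The labels name the TruSeq kit and the study's methods the NEBNext Ultra kit. Positions and exon lengths were matched by Ensembl identifier to GENCODE M21 (GRCm38), a later build than mm8, so a gene's counted exons may differ from those used for its length. No column of another sample was present.

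Genes were filtered with filterByExpr of edgeR 4.0.16 (R 4.3.3; minimum count of 10, minimum total count of 15), scaled by TMM, and compared with the quasi-likelihood test (robust glmQLFit and glmQLFTest, two-sided, no covariates) adjusting by Benjamini-Hochberg across the 14671 genes. Adjusted p-values in the text come from this test unless another is named. The thresholds were an adjusted p of 0.05 and a fold change of 1.5, those of the study's methods. Fold changes are on the log2 scale, and levels are CPM scaled by TMM. The test was tried on simulated data with known changes. There the spread between replicates followed the same rule for every gene, so error rates in these data were not measured. Replicate pairs differed by more than counting noise (chi-square per gene of 2.64 to 3.67), so each library was counted. Alternatives were DESeq2 1.42.0, limma-voom (limma 3.58.1), size factors of DESeq2, library totals without TMM, no filter, a filter of at least 1 CPM in at least 3 libraries, the replicate number as a block, and each library left out in turn. With 3 against 3 libraries an exact permutation test cannot go below 0.10, so none was used.

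The members and all gene lists were chosen with earlier results of these data known. Genes named were every member past both thresholds, then the members past the adjusted p by size of change up to 28 in all, then the member of each role with the highest level per length. Those not named by this rule are given to complete a role, and of the other pathway genes those past both thresholds.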

Additional observations from a re-analysis of the deposited data

How the results depend on the processing

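Under 13 alternatives 36 of the 48 genes kept their side of the threshold. Of these, 19 were among the 29 called, none of which changed direction, and 17 were not called, of which 8 changed sign under at least 1 alternative (Cd247, Cd3d, Cd3e, Cd6, Map3k7, Nck2, Ppp3ca and Ppp3cb). The 12 genes whose call changed were Cbl, Cd3g, Cd5, Fyn, Grap2, Nfatc2, Pag1, Ppp3r1, Prkcq, Rasgrp1, Ubash3a and Ubash3b, and the cause was not tested. The number of genes higher and lower was 11 and 14 with DESeq2, 12 and 16 with limma-voom, 10 and 17 with library totals, and 9 to 13 and 13 to 16 with 1 library left out, against 13 and 16. The module's median, a log2 fold change of -0.025, was -0.043 with library totals without TMM, which shifts the median of all genes by -0.018, and ran from -0.039 to -0.015 with 1 library left out. With 1 library left out, 0 to 1 genes fell past both thresholds, with 0 where control replicate 3 or IL-33 replicate 3 was left out, since the value of Tespa1 was then under the fold threshold. Of the other 77 pathway genes 34 passed, and 27 with DESeq2.

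Same-numbered libraries of the groups did not deviate together (correlations of 0.047, -0.086 and 0.043 over 8839 genes). Differently numbered libraries gave -0.146 to 0.101. Whether the numbers pair the samples is not given and cannot be told from these values, since noise between libraries could hide a shared origin. With the replicate number as a block 13 genes were higher and 16 lower, 2 and 1 past both thresholds, 33 of the other pathway genes passed, and no call among the 48 changed.

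The log2 fold changes of Cd5, Cd6, Nck2 and Tespa1 had the widest SEs of the 48, from 0.11 to 0.16. Counts of genes whose exons overlap another gene's cannot be separated from it. The replicates' origin is not given, and protein or phosphorylation was not measured in these libraries.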

Other observations

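Beside the members, the coreceptor transcripts of these sorted CD8-negative cells moved apart. Cd8a was at 539.6, 561 and 535 CPM in control and 410.4, 393 and 397 CPM in IL-33 libraries, a fall, while Cd8b1 was at 9.52, 11.4 and 8.12 CPM in control and 16.8, 18.1 and 14.0 CPM in IL-33 libraries, a rise of 0.75 on the log2 scale (SE 0.11, adjusted p = 6.2e-08 in edgeR). Per kilobase of exon Cd8a remained the more abundant, at 149.9 ± 3.73 against 6.53 ± 1.11 CPM per kilobase in control libraries. Among the other brakes, Rnf128, the ubiquitin ligase GRAIL, rose by 0.51 on the log2 scale, and was named after its value was seen.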
